A study of Rattus norvegicus with 6 samples.

Results

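Translation initiation and elongation factors were the 58 genes of the array that carry an eIF (symbols beginning with Eif1 to Eif6) or eEF (Eef1 and Eef2) name, together with Mtor and Rps6kb1, of 10411 genes in all. They were chosen by symbol and not by a measured value, though earlier results of these data were known when the rule was set. Rps6ka1 and Pabpc1, which the rule also names, were not analysed here. The members had 69 of the 15866 probe sets tested, and each gene was read from its brightest probe set by mean over the 6 arrays, with the 11 other probe sets of 9 genes kept as a check. Another 4 probe sets carry an eIF symbol beside a second one (Eif3e with Eif3el1, Eif5 with Eif5-ps1) and were not counted.

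The arteries came from Dahl rats, a strain bred for its blood pressure response to dietary salt, all fed 0.4% NaCl chow before the study. From 7 weeks of age one group stayed on 0.4% NaCl for 12 weeks (low salt), and the other ate 8% NaCl (high salt) for 11 weeks by the sample characteristics or 12 weeks by the protocol text. No transgene or drug is named for either diet. The vessels were branches of the arteries at the base of the brain, taken whole, so that smooth muscle, endothelium and adhering tissue are measured together. Each of the 3 arrays per diet holds RNA pooled from 3 rats, which gives 9 rats per diet. The study's question was which genes differ between the diets, across the array and among genes tied to disease.

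Translation begins when eIF4F, made of the cap-binding eIF4E, the scaffold eIF4G and the helicase eIF4A, recruits the small ribosomal subunit through eIF3 to a capped mRNA. eIF2 brings the initiator tRNA, eIF2B recharges eIF2 with GTP, and the elongation factors eEF1 and eEF2 then deliver aminoacyl tRNAs and move the ribosome along. The kinase mTOR promotes cap-dependent initiation by phosphorylating the 4E-binding proteins, which otherwise hold eIF4E, and the S6 kinases, while stress kinases that phosphorylate eIF2 slow initiation and favour translation of Atf4. Arrays measure the mRNAs of these proteins and not their phosphorylation or activity.

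Most factors had a higher value after high salt. Of the 58 genes 48 were higher and 10 lower, with a median difference, high salt minus low salt, of 0.29 log2 units (1 unit is a doubling). Over the whole array 6250 of 10411 genes were higher. In the brightest quintile of genes by mean value 1625 of 2082 were higher, and in the next 1563 of 2082. For 13 members all 3 high salt arrays lay above all 3 low salt arrays, and for 1 member, Eif4ebp2, all 3 lay below. The 13 were the scaffold Eif4g1, the eIF2B subunits Eif2b2, Eif2b3 and Eif2b5, the eIF3 subunits Eif3b and Eif3m, Eif1ad, Eif5a, the eEF1 genes Eef1b2, Eef1d, Eef1e1 and Eef1g, and Eef2. No member passed the test: limma (a linear model for each probe set that borrows strength across the array to estimate variances) with Benjamini-Hochberg adjustment called 0 of 58 members and 0 of 15866 probe sets (0%) at an adjusted p below 0.05. The lowest adjusted p of a member was 0.803, and the lowest on the array was 0.540. Below an unadjusted p of 0.05 limma put 7 of 58 members higher, against 4.63% of all probe sets, and 1 lower, against 0.7%. In the brightest quintile of genes it put 145 of 2082 higher and 23 lower. In the next quintile it put 194 of 2082 higher and 15 lower. With 3 arrays against 3 an exact two-sided permutation test of a single gene cannot give a p below 0.1.

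The counts stand beside those of other genes. Groups without overlap were 22.4% of the members on the higher side, 7.23% of all probe sets and 10.6% of the brightest quintile of genes. On the lower side they were 1.72% of the members, 3.93% of all probe sets, 1.73% of the brightest quintile of genes and 1.44% of the next. The members were bright genes: 41 of 58 lay in the brightest 2 quintiles of all genes by mean value, and 0 in the dimmest quintile. Brighter genes had larger differences throughout the array, and the members' median of 0.29 stands beside 0.26 in the brightest quintile, 0.23 in the next quintile and 0.07 over all genes. On the deposited scale the size of the members' shift was close to that of equally bright genes.

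**Figure D1:**
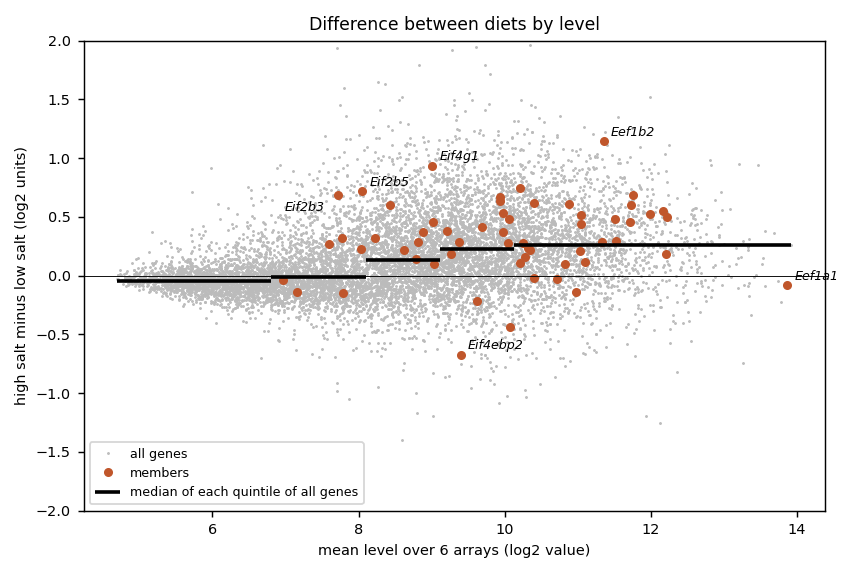
Difference between diets (y axis, log2 units, high salt minus low salt) against mean value over the 6 arrays (x axis, log2) for all genes (grey) and the 58 members (orange), with the median of each quintile of genes by mean value as a black line; 4 genes outside the plotted range are not shown. The line climbs from dim to bright genes to reach 0.26, and most members lie among the bright genes around it, with Eef1b2 and Eif4g1 above and Eif4ebp2 below.

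One low salt array carried much of the shift. The median value of the members was 9.70 on low salt replicate 1, 10.08 on replicate 2 and 10.18 on replicate 3. It was 10.25, 10.19 and 10.25 on the 3 high salt arrays, which lay close together. Low salt replicate 1 also had the narrowest spread over the whole array, with an interquartile range of 2.57 beside 2.92 to 3.18 on the others. Low salt replicate 1 was the lowest of the 6 arrays for 41 of 58 members (70.7%), as it was for 62.9% of the brightest quintile of genes and 36.5% of all genes. Without it the median difference of the members was 0.10, beside 0.08 in the brightest quintile and 0.12 in the next. Leaving it out also turned 12 members in sign. Without low salt replicate 2 or 3 the median was 0.40 in either case. Leaving out an array cannot make separated diets overlap, so the count without overlap can stay or grow but not shrink. Without low salt replicate 1 it was 13 on the higher side (22.4% of members, 10.5% of all probe sets, 11.4% of the brightest quintile of genes). Without low salt replicate 2 it was 24 on the higher side (41.4%, 21.6% and 36.1%, in the same order). On the lower side it was then 2, with 17.2% of all probe sets. Leaving out low salt replicate 3 gave 18 members higher (31.0%, 11.8% and 19.3%). Leaving out high salt replicate 1 gave 15 (25.9%, 10.5% and 14.0%), replicate 2 gave 19 (32.8%, 14.0% and 20.1%) and replicate 3 gave 18 (31.0%, 12.0% and 17.4%). The count below an unadjusted p of 0.05 (limma) was 8 with all arrays and 17 without low salt replicate 2. It was 5 when high salt replicate 1 was left out and 4 when replicate 3 of that diet was.

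Rescaling lowered the shift as well. The median over all genes was 0.07 as deposited and -0.06 after each array was centred on a common median, a move of the whole scale. On that scale the members' median was 0.16, with 44 higher and 14 lower. After quantile normalization it was 0.13 with 38 higher and 20 lower, and after cyclic loess normalization 0.17 with 40 higher and 18 lower, where all genes stood at -0.02 and 0.01. The brightest quintile of genes had a median of 0.13 after centring, 0.05 after quantile normalization and 0.01 after cyclic loess, and the next quintile 0.10, -0.00247 and 0.03, so the members' median exceeded both under all 3 scalings, without a test of that difference. Members higher without overlap numbered 8 after centring (13.8% of members, 3.26% of all probe sets, 5.43% of the brightest quintile of genes). They numbered 7 after quantile normalization (12.1%, 4.27% and 5.57%) and 7 after cyclic loess (12.1%, 5.38% and 5.52%). Eif4g1, Eef1b2, Eif2b3 and Eif2b5 were the 4 members that kept the separation under all 3 scalings, and Eif4ebp2 kept it on the lower side under all 3.

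**Figure D2:**
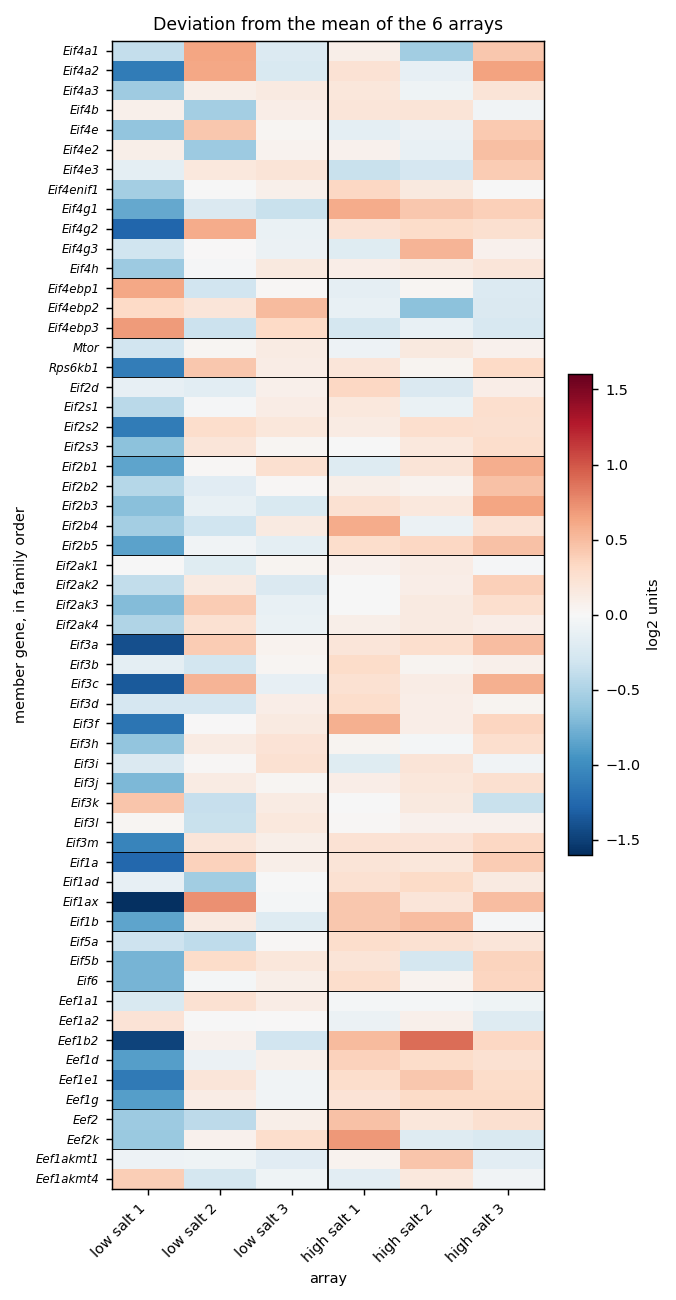
Deviation of each member from its own mean over the 6 arrays (colour, log2 units, blue below and red above) with arrays as columns, low salt left and high salt right of the vertical line, and members as rows in family order. The column of low salt replicate 1 is the bluest, being the lowest array for 41 of 58 members, while the 4E-binding proteins at rows 13 to 15 are red there.

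Other measures differed between the arrays too. The mean of 10 smooth muscle markers was 11.98, 11.32 and 12.12 on the low salt arrays and 11.46 to 11.59 on the high salt arrays, so the labelled tissue carries its defining transcripts on every array. Each of the 10 had a lower mean on the high salt arrays (median difference -0.15, and -0.28, -0.40 and -0.36 after median centring, quantile normalization and cyclic loess). The mean of 12 astrocyte markers was 9.08, 10.39 and 8.46 on low salt and 10.09 to 10.34 on high salt, with 11 of 12 higher after high salt, while Slc1a2 and Fgfr3 stayed between 6.67 and 7.12 on every array. The means were 9.37 to 10.05 for 7 endothelial, 8.71 to 9.70 for 6 macrophage, 7.04 to 7.67 for 8 neuron, 7.97 to 8.70 for 5 oligodendrocyte and 10.03 to 11.18 for 3 red blood cell markers. The red blood cell mean was 10.03 to 10.22 on low salt and 10.46 to 11.18 on high salt. In whole vessels fewer cells of a type and less RNA per cell cannot be told apart. For RNA quality, the GAPDH control's 3 prime probe set exceeded its 5 prime one by 3.30 log2 units on low salt replicate 1 and by 1.94 to 2.69 on the other 5 arrays, and the hybridization controls averaged 10.47 there and 8.78 to 10.13 elsewhere. For beta-actin the same gap was 3.20 on low salt replicate 1 and 3.16 to 3.89 elsewhere. The part of these measures in the members' differences was not tested.

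The eIF4F complex and its scaffold held the member with the lowest p. Eif4g1, which bridges eIF4E, eIF4A and eIF3, was at 8.19, 8.77 and 8.66 log2 units on the low salt arrays and at 9.61, 9.44 and 9.39 on the high salt arrays. Every high salt array was above every low salt array, with a gap wider than the spread within either diet. The means were 8.54 ± 0.31 and 9.48 ± 0.11 (SD, n = 3), a difference of 0.94 ± 0.18 (SE), or 1.92-fold, which limma with Benjamini-Hochberg adjustment gave an adjusted p of 0.803. It was 0.76 without low salt replicate 1 and 0.75 to 0.81 under the 3 scalings. The second probe set of Eif4g1, dim at a mean value of 5.87, gave 0.13 ± 0.10 and overlapped between diets.

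The stretch around the start of Eif4g1 in RefSeq (GRCr8, chr11:93746338-93746467, minus strand, from 100 bases before to 30 bases after the annotated start) is printed because this gene separated the diets most clearly by p and its window holds the letters CACGTG at 2 places. CACGTG is the E-box read by MYC and related factors, and the capitals mark it.

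Eif4g1: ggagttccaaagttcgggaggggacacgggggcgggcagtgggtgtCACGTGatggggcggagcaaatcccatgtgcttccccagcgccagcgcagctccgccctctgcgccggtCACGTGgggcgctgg

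The other members of the cap complex did not separate the diets. Eif4e, the cap-binding protein, was at 10.48, 11.53 and 11.14 on low salt and at 10.95, 11.01 and 11.53 on high salt. The highest and the lowest of these 6 values were both low salt arrays. The difference was 0.11 ± 0.31 (95% interval -0.64 to 0.87), with -0.17 without low salt replicate 1, and its sign turned under each of the 3 scalings. Eif4a1, the helicase, was at 10.03, 11.03 and 10.19 on low salt and at 10.50, 9.85 and 10.84 on high salt, a difference of -0.02 ± 0.36. Its values were spread as widely within each diet as between them. Among the remaining 9 eIF4 genes the differences ran from -0.15 for Eif4e3 to 0.52 for Eif4g2, and 8 of the 9 were higher after high salt. Eif4g2, a scaffold relative that lacks the eIF4E site, was at 10.72 on low salt replicate 1 and at 11.88 to 12.59 on the other 5 arrays, and its difference was 0.01 without that array. Eif4a2, the second helicase, likewise was at 11.10 on low salt replicate 1 and 11.98 to 12.87 elsewhere (0.50 ± 0.46, or 0.06 without that array). Eif4b, a cofactor of the helicase, gave 0.23 ± 0.21, and its second probe set gave 0.22 ± 0.69 with values from 7.99 to 10.78 on low salt.

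The 4E-binding proteins, which compete with eIF4G for eIF4E, were the family on the lower side, with all 3 lower after high salt. Eif4ebp2 was at 9.71, 9.59 and 9.90 on low salt and at 9.28, 8.73 and 9.17 on high salt. The lowest low salt array was above the highest high salt array. The means were 9.73 ± 0.16 and 9.06 ± 0.29 (SD, n = 3), and limma with Benjamini-Hochberg adjustment gave the difference of -0.67 ± 0.18 (a ratio of 0.627) an adjusted p of 0.803. It was -0.68 without low salt replicate 1 and between -0.80 and -0.91 under the 3 scalings. Eif4ebp1, the form best known as an mTOR substrate, was at 10.24, 9.31 and 9.65 on low salt and at 9.49, 9.65 and 9.40 on high salt. Low salt replicate 1 was its highest array, and the difference of -0.22 ± 0.25 became 0.03 without it. Eif4ebp3 differed by -0.44 ± 0.27, or -0.21 without low salt replicate 1, and the diets overlapped. The 4E-binding proteins Eif4ebp1 and Eif4ebp3 thus had their highest value on the array where most factors had their lowest.

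The window of Eif4ebp2 (GRCr8, chr20:29942893-29943022, minus strand, the same distances) is shown as that of the 1 member lower without overlap. It has no CACGTG in the window searched and holds CTTCCGG, the core read by ETS factors, marked in capitals.

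Eif4ebp2: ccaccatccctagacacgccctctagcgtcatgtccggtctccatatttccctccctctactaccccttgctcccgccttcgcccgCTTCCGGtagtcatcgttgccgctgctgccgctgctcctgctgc

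mTOR and its S6 kinase did not separate the diets. Mtor was at 8.73, 9.07 and 9.17 on low salt and at 8.96, 9.20 and 9.11 on high salt. The difference of 0.10 ± 0.15 (95% interval -0.27 to 0.47) turned in sign without low salt replicate 1 and under each of the 3 scalings. Rps6kb1, which encodes S6 kinase 1, was at 7.78, 9.32 and 9.01 on low salt and at 9.09, 8.93 and 9.20 on high salt. Low salt replicate 1 was far below the other 5 arrays, and the difference of 0.37 ± 0.40 became -0.09 without it. Its second probe set, at a mean value of 6.46, gave 0.14 ± 0.25.

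**Figure D3:**
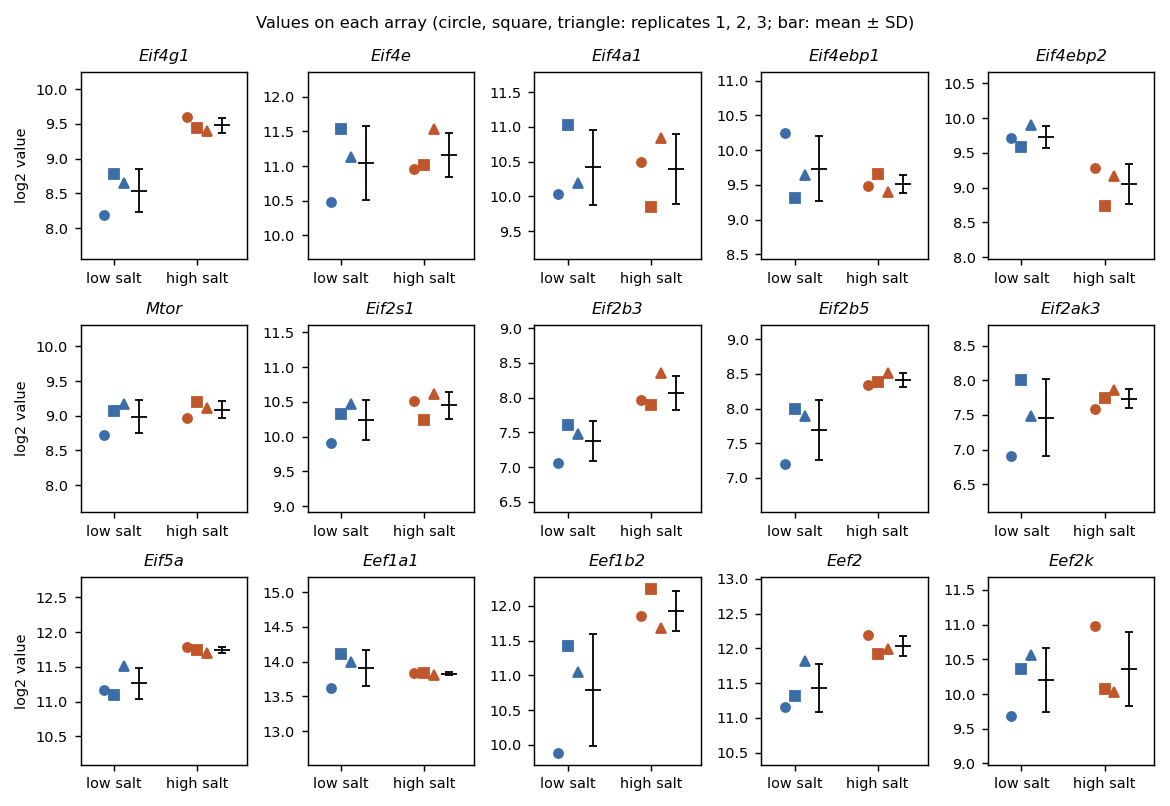
Log2 values (y axis, each panel spanning the same number of log2 units) of 15 members on the 3 low salt (blue) and 3 high salt (orange) arrays, with circle, square and triangle for replicates 1, 2 and 3 and black bars for the mean ± SD of each diet. Eif4g1, Eif2b3, Eif2b5, Eif5a, Eef1b2 and Eef2 lie higher on all high salt arrays and Eif4ebp2 lower, while Eif4e, Eif4a1, Mtor, Eif2s1, Eif2ak3, Eef1a1 and Eef2k overlap between diets.

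eIF2B, the exchange factor that stress signalling inhibits, was higher in all 5 subunits, with differences from 0.38 to 0.72 and a median of 0.49. The median was 0.34 without low salt replicate 1, 0.36 after centring, 0.24 after quantile normalization and 0.26 after cyclic loess. Eif2b5, the catalytic epsilon subunit, was at 7.20, 7.99 and 7.89 on low salt and at 8.33, 8.38 and 8.52 on high salt. All 3 high salt arrays were above the low salt ones, and the difference was 0.72 ± 0.23, or 0.47 without low salt replicate 1. Its second probe set, at a mean value of 6.88, gave 0.39 ± 0.24 with overlap. Eif2b3, the gamma subunit, was at 7.06, 7.61 and 7.48 on low salt and at 7.97, 7.89 and 8.35 on high salt, again without overlap, for a difference of 0.69 ± 0.20. It was 0.53 without low salt replicate 1 and 0.56 to 0.68 under the 3 scalings. Eif2b2, the beta subunit, was at 9.23, 9.51 and 9.71 on low salt and at 9.79, 9.75 and 10.16 on high salt. The diets were apart by a small step, and under each of the 3 scalings they overlapped, with a difference of 0.42 ± 0.18 as deposited and 0.18 after quantile normalization. Eif2b1 (0.38 ± 0.34) and Eif2b4 (0.49 ± 0.25) overlapped between diets.

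eIF2 itself and its kinases were higher too, each by less than 2 SE. Eif2s1, the alpha subunit that the stress kinases phosphorylate, was at 9.91, 10.33 and 10.47 on low salt and at 10.51, 10.24 and 10.62 on high salt. Its difference of 0.22 ± 0.19 was 0.06 without low salt replicate 1 and slightly below 0 after quantile (-0.03) and cyclic loess normalization (-0.02). The beta and gamma subunits Eif2s2 and Eif2s3 gave 0.44 ± 0.38 and 0.29 ± 0.24, and -0.01 and 0.03 without low salt replicate 1. Eif2d, which can place tRNA on the ribosome without GTP, gave 0.14 ± 0.17. Eif2ak3 (PERK, the kinase of the endoplasmic reticulum) was at 6.90, 8.00 and 7.48 on low salt and at 7.59, 7.74 and 7.86 on high salt. The low salt arrays lay on both sides of the high salt ones, and the difference of 0.27 ± 0.28 was -0.01 without low salt replicate 1. The other kinases, Eif2ak1 (sensitive to heme), Eif2ak2 (PKR, which binds double-stranded RNA) and Eif2ak4 (GCN2, which senses uncharged tRNA), differed by 0.11 ± 0.11, 0.32 ± 0.18 and 0.23 ± 0.19 with overlap. A second probe set of Eif2ak1 gave 0.42 ± 0.17 without overlap, where the main one turned in sign under the 3 scalings.

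eIF3, the large complex that joins the mRNA and the small subunit, was higher in 9 of 11 measured subunits, with a median of 0.29. The median was 0.10 without low salt replicate 1, 0.16 after centring, 0.08 after quantile normalization and 0.05 after cyclic loess. Eif3a, Eif3c, Eif3f and Eif3m had low salt replicate 1 more than 1 log2 unit below the mean of the other low salt arrays. For Eif3a, for example, that array was at 8.53 and the other 5 ran from 9.99 to 10.44, so that the difference of 0.64 ± 0.47 became 0.09 without it. Eif3b, part of the core scaffold, was at 10.09, 9.95 and 10.27 on low salt and at 10.54, 10.30 and 10.33 on high salt. The nearest arrays of the diets were 10.27 and 10.30, and the difference of 0.28 ± 0.13 was 0.03 after quantile normalization. Eif3i (-0.03 ± 0.17) and Eif3k (-0.14 ± 0.24) were lower, Eif3k with its highest value, 11.41, on low salt replicate 1.

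The genes with eIF1 and eIF1A names were higher in 4 of 4. Eif1a, Eif1ax and Eif1b encode forms of the factors that help the scanning ribosome find the start codon. Eif1ax had the widest spread of all members among low salt arrays, at 8.38, 10.94 and 10.18, beside 10.64, 10.40 and 10.70 on high salt. Its difference of 0.75 ± 0.64 was 0.02 without low salt replicate 1, and that of Eif1a, its close relative, was 0.53 ± 0.43 and 0.04. Eif1ad, a protein with an eIF1A-like domain, was at 8.88, 8.46 and 9.01 on low salt and at 9.25, 9.32 and 9.15 on high salt. It did not overlap, and its lowest array was low salt replicate 2, so that the difference of 0.45 ± 0.16 was 0.50 without replicate 1. Eif1b gave 0.60 ± 0.29 with overlap.

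Eif5a, a factor that carries the modified residue hypusine and relieves ribosomes stalled on proline-rich stretches, was at 11.17, 11.09 and 11.52 on low salt and at 11.79, 11.74 and 11.70 on high salt. The high salt arrays had an SD of 0.046 (n = 3) and lay above all low salt arrays. The difference of 0.48 ± 0.14 was 0.44 without low salt replicate 1 and 0.22 after cyclic loess, where the diets overlapped. Eif6, which keeps the ribosomal subunits apart, gave 0.46 ± 0.24, and the subunit-joining GTPase Eif5b gave 0.18 ± 0.32, both with overlap.

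Of the 6 eEF1 genes 4 were higher without overlap, where 7.23% of all probe sets and 10.6% of the brightest quintile of genes were. These 4 were Eef1b2, Eef1d and Eef1g, which recharge eEF1A with GTP or hold the exchange complex together, and Eef1e1, a small protein of the multi-synthetase complex that overlapped between diets under all 3 scalings. Eef1b2 kept the separation under all 3 scalings, and Eef1d and Eef1g under 2 of them. Eef1b2 was at 9.88, 11.42 and 11.05 on low salt and at 11.86, 12.25 and 11.68 on high salt. All high salt arrays were above all low salt arrays, and low salt replicate 1 was well below its group. The means were 10.78 ± 0.81 and 11.93 ± 0.29 (SD, n = 3). The difference of 1.15 ± 0.42, or 2.21-fold, was the largest of all 58 members, with 0.69 without low salt replicate 1 and 0.89 to 1.02 under the 3 scalings. Eef1d, Eef1e1 and Eef1g gave 0.61 ± 0.26, 0.67 ± 0.35 and 0.55 ± 0.27, and 0.31, 0.27 and 0.24 without low salt replicate 1. Eef1a1, the GTPase that carries the aminoacyl tRNA, was at 13.62, 14.11 and 13.99 on low salt and at 13.84, 13.84 and 13.80 on high salt. The high salt values lay inside the low salt range, for a difference of -0.08 ± 0.15. Its second probe set gave 0.11 ± 0.18, opposite in sign, and after cyclic loess the main one was lower on all high salt arrays (-0.34), as it was without low salt replicate 1 (-0.22). Eef1a2, the form of neurons and striated muscle, gave -0.14 ± 0.12. The eEF1A methyltransferases Eef1akmt1 and Eef1akmt4 gave 0.22 ± 0.17 and -0.03 ± 0.20.

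eEF2, which moves the ribosome by 1 codon, and eEF2 kinase, which inhibits it, differed in how they separated the diets. Eef2 was at 11.15, 11.32 and 11.82 on low salt and at 12.20, 11.91 and 11.98 on high salt. The diets did not overlap, and the difference of 0.60 ± 0.20 was 0.46 without low salt replicate 1 and 0.34 after cyclic loess. Eef2k was at 9.69, 10.36 and 10.56 on low salt and at 10.97, 10.08 and 10.03 on high salt, where high salt replicate 1 stood above the others. Its difference of 0.16 ± 0.34 was -0.10 without low salt replicate 1, -0.15 when high salt replicate 1 was left out, and turned in sign after quantile (-0.06) and cyclic loess normalization (-0.08). A second probe set of Eef2k, at 7.96, 7.78 and 8.07 on low salt and 9.17, 8.68 and 8.14 on high salt, gave 0.73 ± 0.27 without overlap. The remaining 2 gave 0.09 ± 0.40 and 0.04 ± 0.10, so the probe sets of Eef2k disagree in size.

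**Figure D4:**
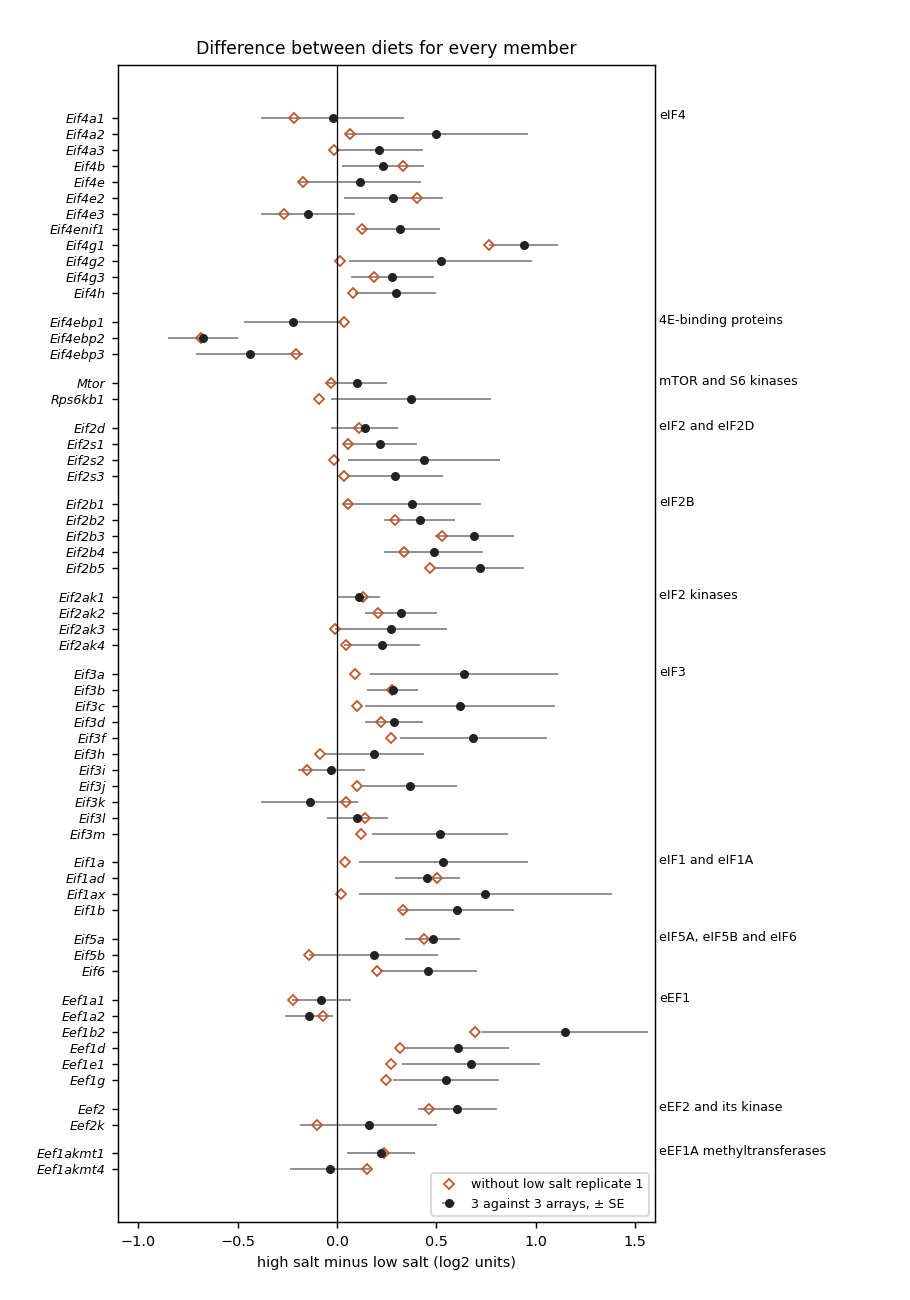
Difference between diets (x axis, log2 units, high salt minus low salt) of all 58 members by family, with the limma SE as a bar (black, 3 against 3 arrays) and the same difference without low salt replicate 1 (open orange). Without that array the median of the members is 0.10 against 0.29, the open symbols of Eif4g1, Eef1b2, Eif2b3 and Eif2b5 stay well right of 0, and that of Eif4ebp2 stays at -0.68.

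Letters shared by the members' promoters were counted in windows from 250 bases before to 50 bases after the annotated start (RefSeq, GRCr8). Both strands were searched, except that the pyrimidine tract was sought on the gene's own strand only. Windows were found for 53 of 58 members (56 windows), and Eef1d, Eif3h, Eif4b, Eif4e3 and Eif4ebp1 had none in the table used. The E-box CACGTG was in 11 of 53 members (20.8%) and in 6.42% of all 33469 windows. The ETS letters CTTCCGG or CCGGAAG were in 17 members (32.1%) and in 8.75% of all windows, and the GC box GGGCGG or CCGCCC in 37 members (69.8%) and 33.1%. CCAAT or ATTGG was in 17 members (32.1%) and 37.5%. A tract of at least 5 pyrimidines that begins with C within 5 bases of the start, as in mRNAs whose translation depends on mTOR, was in 13 members (24.5%) and in 17.0% of all windows. The amino acid response letters TGATGCAA or TTGCATCA and the NRF1 and ZNF143 motifs were in 1 member each (1.89%), and the BTB-type palindrome in 0, with 0.795%, 0.852%, 0.275% and 0.373% of all windows. These 9 motifs could overlap each other, the table holds windows of every gene type, and the stretches printed were chosen after the counts were seen. A match is a description of the letters and not of a bound site.

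The 11 members with CACGTG were Eif4g1, Eef2, Eif5a, Eif3b, Eif3a, Eif3f, Eif4h, Eif1b, Eif4e, Eef2k and Eef1akmt4. Among them Eif4g1, Eef2, Eif5a and Eif3b were higher without overlap and the rest overlapped between diets. Over all 58 members 13 (22.4%) were higher without overlap, beside 7.23% of all probe sets and 10.6% of the brightest quintile of genes. Of those named as separated, Eif4g1 alone kept the separation under all 3 scalings, and Eif3b kept it under none. A link between the E-box and the separation was not tested. The E-box of Eef2 (chr7:9189297-9189326, minus strand) and of Eif5a (chr10:55143410-55143439, minus strand), both separated, is set beside that of Eif4e (chr2:229740504-229740533, plus strand), which was not, to show that the same 6 letters stand in both kinds of window. Capitals mark the E-box.

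Eef2: cacccgcgccgtCACGTGacgtgcccaacc
Eif5a: aaggggcggggtCACGTGtgtgcgtcattg
Eif4e: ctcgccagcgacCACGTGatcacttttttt

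The pyrimidine tract is shown for the elongation factors with the highest and one of the lower differences, Eef1b2 (chr9:72074081-72074110, plus strand) and Eef1a1 (chr8:88225050-88225079, minus strand), since both carry it at the start while their differences were 1.15 and -0.08. Capitals mark the tract.

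Eef1b2: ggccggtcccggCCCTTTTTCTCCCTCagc
Eef1a1: ttggacgttCTTTTTCgcaacgggtttgcc

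Genes around the factors were read from lists set by function, with earlier results of these data known. Their counts of higher genes stand beside 6250 of 10411 over all genes. In the brightest quintile 1625 of 2082 genes were higher, and in the next 1563 of 2082. Of 11 measured genes of the integrated stress response, 9 were higher and 2 lower, with 4 below an unadjusted p of 0.05 in limma on the higher side, 3 of them without overlap, and 1 gene lower without overlap. Over all probe sets 4.63% were below that p on the higher side, 7.23% were higher without overlap and 3.93% lower. The median was 0.11, and 0.20 without low salt replicate 1, with -0.02, -0.06 and 0.04 under the 3 scalings. Atf4, the transcription factor whose mRNA is favoured when eIF2 is phosphorylated, was at 10.67 and 11.06 on low salt replicates 2 and 3, lower still on replicate 1, and at 11.53, 11.33 and 11.55 on high salt. Its arrays did not overlap between diets, and the difference of 0.90 ± 0.27 was 0.61 without low salt replicate 1. Ddit3 (CHOP, a target of ATF4) gave 0.85 ± 0.30 and Ppp1r15b, which directs dephosphorylation of eIF2, gave 1.16 ± 0.33, both without overlap and at 0.68 and 0.98 after quantile normalization. Nupr1, a stress-induced chromatin protein, gave 0.48 ± 0.18 with overlap. Asns (0.05 ± 0.27) and Trib3 (0.07 ± 0.22), other targets of ATF4, overlapped between diets, and Atf3 was lower without overlap (-0.25 ± 0.13). Chac1, the other lower gene of the list, gave -0.32 ± 0.17 with overlap, and -0.40 to -0.50 under the 3 scalings.

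Of 19 aminoacyl tRNA synthetases, the enzymes that charge tRNAs for eEF1A, 17 were higher, with a median of 0.25, and 6 were below an unadjusted p of 0.05 in limma, all on the higher side, where 4.63% of all probe sets were. The median was 0.19 without low salt replicate 1, 0.12 after centring, 0.03 after quantile normalization and 0.05 after cyclic loess. Tars1 was at 8.17, 8.60 and 8.90 on low salt and at 9.25, 9.28 and 9.07 on high salt, a difference of 0.64 ± 0.20 without overlap. Kars1 (0.57 ± 0.20), Farsa (0.36 ± 0.14), Cars1 (0.32 ± 0.11), Mars1 (0.28 ± 0.11) and Qars1 (0.25 ± 0.10) were the others, also without overlap as deposited. After quantile normalization and cyclic loess the differences were 0.03 and 0.0001 for Qars1, 0.05 and 0.10 for Mars1, and 0.11 and 0.17 for Cars1. They were 0.21 and 0.28 for Farsa, 0.30 and 0.34 for Kars1, and 0.47 and 0.51 for Tars1. These 6 are 31.6% of the synthetases, beside 7.23% of all probe sets and 13.4% and 10.6% of the genes in the brighter 2 quintiles that were higher without overlap.

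Of 17 measured genes of mTORC1 and its upstream control, 13 were higher and 4 lower, with a median of 0.26, or 0.13 without low salt replicate 1. The mTORC1 inhibitor Ddit4 (REDD1) gave 0.73 ± 0.27, and the mTORC1 scaffold Rptor was at 9.20, 8.83 and 9.42 on low salt and at 9.61, 9.57 and 9.44 on high salt, for 0.39 ± 0.17. Both were higher without overlap (7.23% of all probe sets), and Pik3r1 was lower without overlap by a small amount (-0.14 ± 0.11). Tsc1 and Tsc2, which restrain mTORC1, gave 0.26 ± 0.15 and 0.11 ± 0.14 with overlap.

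Of 15 partners of eIF4F and poly(A)-binding proteins, 11 were higher and 4 lower, with 0 below an unadjusted p of 0.05 in limma and 0 without overlap. Their median of 0.35 was -0.04 without low salt replicate 1, which was more than 1 log2 unit below the mean of the other low salt arrays for 6 of them. Larp1, which binds mRNAs with a pyrimidine tract, gave -0.15 ± 0.30. Of 4 measured termination and recycling genes, 3 were higher, with a median of 0.21 that turned to -0.03 after quantile normalization.

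Of 44 cytosolic ribosomal proteins, the best known carriers of the pyrimidine tract, 33 were higher and 11 lower, with a median of 0.12 that was -0.01 after centring, 0.01 after quantile normalization and -0.03 after cyclic loess. Low salt replicate 1 was their lowest array for 16 of 44, against 41 of 58 for the translation factors. Rps9 (0.87 ± 0.35) and Rpl23 (0.47 ± 0.19) were the 2 below an unadjusted p of 0.05 in limma, where 4.63% of all probe sets were on the higher side. Both were higher without overlap, as was Rps3 (0.75 ± 0.35). That is 3 of 44 (6.82%), beside 7.23% of all probe sets and 10.6% of the brightest quintile of genes. In all 6 lists no gene passed the adjusted threshold, since limma with Benjamini-Hochberg adjustment called 0 probe sets of the array.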

How the data were processed

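The deposited table gives each probe set a log2 value on every array, made by the authors with RMA (background correction, normalization and summary of the probes), per the submitters' processing notes. The RMA version is not stated there, and base 2 was inferred from how large the deposited log2 values are. RNA was amplified over 2 cycles and hybridised to an Affymetrix rat array, per the labels' protocols; vessels were snap frozen or kept in RNAlater, and which sample had which is not stated. Array medians ran from 7.96 to 8.17. The interquartile range of an array's values was 2.57 on low salt replicate 1 and 2.92 to 3.18 on the others. The deposited arrays thus do not share a common distribution, and whether they were normalized together was not tested. Of 15923 probe sets 57 controls were left out. Symbols came from the platform annotation: 12783 probe sets had 1, 312 several and 2771 none, and 12748 were matched by Entrez identifier to RefSeq (GRCr8), which changed 0 symbols.

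limma 3.58.1 in R 4.3.3 (lmFit, eBayes) compared 3 arrays with 3, with Benjamini-Hochberg adjustment over 15866 probe sets and an adjusted p below 0.05 called; the fit was tested on simulated data. Each SD is taken within a diet and each SE is limma's moderated one. The replicates are pools of separate rats, and p-values measure the spread between these arrays, pool and technical error together. No 2 arrays held identical values (0 pairs). The number of arrays limits the precision. Alternatives were other scalings, a filter at the 40th percentile, other variance models and weights, a replicate block, other ways to read a gene's probe sets, and leaving out each array. Values in every array are given for members without overlap between diets (at most 8 per direction, by lowest p) and for a fixed set of central factors; other genes with such values were singled out after they were seen. Members, lists and this rule were chosen with earlier results of these data known.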

Additional observations from a re-analysis of the deposited data

How the results depend on the processing

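No setting called a member: limma with Benjamini-Hochberg adjustment gave 0 in each of the 15 alternatives (of 58 members, or of 56 above the 40th percentile), while at an unadjusted p below 0.05 it put 4 to 17 members. The lowest adjusted p of a member described with its values was 0.137, for Eif4g1 without low salt replicate 2. Members higher without overlap were 13 as deposited, 8 after median centring, 7 after quantile normalization, 7 after cyclic loess and 13 to 24 with 1 array left out, and those lower were 1, or 2 after cyclic loess and 1 to 2 with 1 array left out. The higher side held 22.4% of members as deposited, beside 10.6% of the brightest quintile of genes. Under the 3 scalings it held 12.1% to 13.8%, beside 5.43% to 5.57%. With 1 array left out it held 22.4% to 41.4%, beside 11.4% to 36.1%. The count below an unadjusted p of 0.05 was 8, or 5 after quantile normalization and 5 with trended and robust variances. The median difference of 0.29 ran from 0.10 to 0.40 with 1 array left out.

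Of 270 differences of 18 members under an alternative, 24 turned in sign, in 9 members. Not every one of the 270 could turn. The percentile filter, 1 probe set per gene, trended and robust variances and the replicate block leave each difference as it was. Averaging probe sets can likewise move only members that have several. The share that turned thus makes the signs look steadier than they are. Eif4e was -0.017 after centring, -0.0992 after quantile normalization and -0.141 after cyclic loess, Mtor was -0.0305, -0.0945 and -0.0519, and -0.0191 with array weights (limma's estimate stopped short of its tolerance). Eef2k was -0.0597 and Eif2s1 -0.0276 after quantile normalization, and -0.0781 and -0.0217 after cyclic loess. Eef1a1 was 0.0142 as the mean of its probe sets, and Eif4a1 was 0.0946 with array weights. With 1 array left out Eef2k ran from -0.15 to 0.34, Eif2ak3 from -0.0093 to 0.54, Eif4e from -0.17 to 0.36, Eif4ebp1 from -0.43 to 0.0343, Mtor from -0.0299 to 0.19, Rps6kb1 from -0.0886 to 0.68, Eef1a1 from -0.22 to 0.0236 and Eif4a1 from -0.24 to 0.29. The causes were not tested. Deviations of samples with the same replicate number had correlations over probe sets of 0.04, -0.27 and 0.04. Those of different numbers ran from -0.39 to 0.37. With 3 arrays per diet these values show no pairing by number but cannot exclude it. A replicate block left 8 members below an unadjusted p of 0.05 and 0 called.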

Other observations

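The 4 probe sets annotated with an eIF symbol beside a second one were read apart from the members. The one shared by Eif3e, a further eIF3 subunit, and Eif3el1 was at 10.78, 11.95 and 11.69 on low salt and at 11.95, 11.50 and 11.99 on high salt, a difference of 0.34 ± 0.33. Of the 3 shared by Eif5, which triggers GTP hydrolysis by eIF2, and Eif5-ps1, one differed by 0.36 ± 0.19 without overlap, one by 0.34 ± 0.46 and one by -0.06 ± 0.26, both with overlap. These probe sets disagree in sign, and all 4 have their lowest value on low salt replicate 1.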
